A study of Mus musculus with 36 samples.

Results

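The Nodal genes described here were 10 members of the 54281 genes in each table: the ligands *Nodal* and *Gdf3*, the co-receptors *Tdgf1* and *Cfc1*, the feedback inhibitors *Lefty1* and *Lefty2*, the type II receptor *Acvr2b*, the proprotein convertases *Pcsk6* and *Furin*, and the DNA-binding cofactor *Foxh1*. They were taken by gene symbol, and each symbol matched 1 row in all tables. Bulk RNA came from 36 libraries of mouse ESCs (embryonic stem cells) in neurobasal differentiation, a serum-free culture with bFGF until day 3 in which WT cells become anterior neural progenitor cells (antNPCs) by day 5. The design asks how the loss of TET1, an enzyme that oxidises methylated cytosine in DNA, changes gene expression along this course, and how a catalytic mutation compares with it. *Tet1* KO lines (KO1 and KO15) were set against WT lines (WT7 and WT34), each genotype with 2 libraries on days 0, 1, 2 and 4, 4 on day 3 and 3 on day 5. *Tet1* MUT clones (CM59 and CM69), made from WT7 by CRISPR with an edit in both alleles that leaves TET1 catalytically dead, were set against WT70, a further line labelled only WT. MUT had 2 libraries and WT70 had 1 library on each of days 3 and 5. All lines carry the B6129S6F1 *Tet1* tm1Koh background, the KO and WT lines come from littermate male blastocysts, and day 0 cells were ESCs grown in serum and depleted of feeder fibroblasts. The KO and WT libraries were made in 2 runs of the culture: experiment 1 sampled days 0, 3 and 5, and experiment 2 sampled every day after day 0, with its day 5 limited to 1 line per genotype (KO1, WT7). MUT and WT70 form experiment 3.

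Nodal is a secreted ligand of the TGF-β family that patterns the early embryo. It is cut to its active form by convertases, binds type II and type I activin receptors together with an EGF-CFC co-receptor, and acts through phosphorylated SMAD2 and SMAD3, which reach many target genes with the forkhead protein FOXH1. In the mouse epiblast the pathway feeds forward on *Nodal* itself, switches on the Lefty inhibitors that restrain it, drives primitive streak and endoderm genes, and must be low for anterior neural tissue to form.

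Total counts were 10.1 M to 26.3 M per library (M, 1e6 counts). Levels are given as CPM, counts per 1e6 counts of a library after scaling, and a member is said to have risen or fallen only at an adjusted p under 0.05 in edgeR's quasi-likelihood F test over 21601 genes with a log2 fold change above 1 or below -1. All 10 members were among the genes tested. *Tet1* itself was at 28.9 to 83.1 CPM in the 15 KO libraries, against 108 to 1430 CPM in the 15 libraries of WT7 and WT34, and at 158 to 320 CPM in MUT, against 170 to 254 CPM in WT70. The summed level of 6 naive ESC genes was 3050 to 3060 CPM in KO and 2660 to 2830 CPM in WT cells on day 0, and that of 6 neural progenitor genes on day 5 was 104 to 115 CPM in KO and 347 to 383 CPM in WT cells. Libraries of a genotype come from 2 lines, so p-values measure the spread between these libraries, and in bulk RNA fewer expressing cells and less RNA per cell cannot be told apart.

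Promoter windows of RefSeq (GRCm38.p6, 250 bases before to 50 after a start) were found for 6 of the 10 members. Those of the ligand *Nodal*, of its co-receptors *Tdgf1* and *Cfc1* and of the receptor *Acvr2b* are shown. They were picked because the first 3 genes rose in KO cells on at least 1 day and *Acvr2b* did not pass on any day. *Furin* did not pass on any day either, and its CpG are counted below without its sequence. Capitals mark CpG dinucleotides, the substrate of DNA methylation. The windows lie at chr10:61417722-61418021 (+ strand, *Nodal*), chr9:110946109-110946408 (− strand, *Tdgf1*), chr1:34535398-34535697 (+ strand, *Cfc1*) and chr9:119401928-119402227 (+ strand, *Acvr2b*).
Nodal: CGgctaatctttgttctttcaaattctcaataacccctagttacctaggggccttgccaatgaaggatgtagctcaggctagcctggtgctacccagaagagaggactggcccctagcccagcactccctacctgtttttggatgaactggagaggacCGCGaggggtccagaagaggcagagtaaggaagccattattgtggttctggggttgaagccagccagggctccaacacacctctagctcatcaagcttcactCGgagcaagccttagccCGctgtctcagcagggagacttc
Tdgf1: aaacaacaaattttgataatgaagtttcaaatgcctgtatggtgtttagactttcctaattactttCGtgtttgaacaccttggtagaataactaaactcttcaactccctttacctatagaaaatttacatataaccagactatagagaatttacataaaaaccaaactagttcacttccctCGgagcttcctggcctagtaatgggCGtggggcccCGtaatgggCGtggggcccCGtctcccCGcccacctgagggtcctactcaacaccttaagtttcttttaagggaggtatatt
Cfc1: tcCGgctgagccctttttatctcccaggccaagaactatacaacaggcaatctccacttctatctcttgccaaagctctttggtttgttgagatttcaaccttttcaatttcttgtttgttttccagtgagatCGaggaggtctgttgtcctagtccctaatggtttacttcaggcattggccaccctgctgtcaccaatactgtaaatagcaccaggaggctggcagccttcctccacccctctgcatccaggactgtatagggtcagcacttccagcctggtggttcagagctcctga
Acvr2b: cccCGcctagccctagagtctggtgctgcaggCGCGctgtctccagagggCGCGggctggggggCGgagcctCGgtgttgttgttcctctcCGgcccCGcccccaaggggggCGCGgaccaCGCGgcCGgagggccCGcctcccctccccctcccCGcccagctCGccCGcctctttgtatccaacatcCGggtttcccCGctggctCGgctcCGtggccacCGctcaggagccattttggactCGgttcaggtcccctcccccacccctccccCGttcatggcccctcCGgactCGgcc

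The window of *Nodal* held 5 CpG, that of *Tdgf1* 7 and that of *Cfc1* 2, against a median of 7 over 32851 promoter windows of this length. *Acvr2b* held 27, *Pcsk6* held 52, and *Furin* held 7 in 1 window and 51 in another. Of all windows, 43.5% held at least 10 CpG. The FOXH1 core AATNNACA, searched on both strands, was found at 2 places in the *Tdgf1* window and in none of the other members' windows. Of all windows, 12.2% hold it. The SMAD box CAGAC was searched in the same way, and 49.6% of all windows hold it. It was found at 1 place in the windows of *Tdgf1*, *Cfc1* and *Acvr2b*, and at 2 places and 1 place in those of *Furin*. The windows of *Nodal* and *Pcsk6* held none. These letters describe the windows only, since no binding or methylation was measured in these libraries.

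*Lefty1* (mm10 chromosome 1, 180935022 to 180938400, + strand) and *Lefty2* (chromosome 1, 180893108 to 180899103, + strand) are neighbouring paralogs, and their near identity limits how reads can be told apart. Their coding sequences are both 1104 bases long and have the same base at 1014 positions, 91.8%.

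Of the 50-base windows of *Lefty1* transcripts, 17.93% also occur in *Lefty2*, and 11.95% of those of *Lefty2* occur in *Lefty1*, so a read of that length from such a window was shared between them by estimate. The split between them is therefore uncertain, and their sum is given beside it. *Tdgf1* shares 8.86% of its windows with the pseudogene *Tdgf1-ps1*. *Cfc1* overlaps *Prss40* and *Gm28419* on the other strand, and none of its own windows was shared, as for *Nodal*, *Foxh1* and *Acvr2b*.

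On day 0 most of the pathway was already transcribed in both genotypes. On the TPM scale, which corrects for transcript length, *Tdgf1* led with a mean of 329 TPM in KO ESCs and 252 TPM in WT ESCs. *Gdf3*, *Foxh1*, *Lefty1*, *Pcsk6*, *Nodal*, *Furin*, *Acvr2b* and *Lefty2* followed between 6.26 and 18.3 TPM in KO and between 6.64 and 24.7 TPM in WT. *Cfc1* stood last, at 0.196 TPM in KO and 0.0638 TPM in WT. In WT the libraries of *Lefty2*, *Furin*, *Nodal* and *Pcsk6* overlapped each neighbour in this order, and in KO those of *Gdf3* and *Foxh1* and those of *Lefty1*, *Pcsk6* and *Nodal* did. By day 5 the order had turned, with *Foxh1* first at 56.9 TPM in KO and 26.0 TPM in WT, then *Furin* and *Acvr2b*, and with *Lefty1*, *Lefty2* and *Gdf3* at 0.102 to 0.246 TPM in KO and 0.145 to 0.377 TPM in WT.

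**Figure D1:**
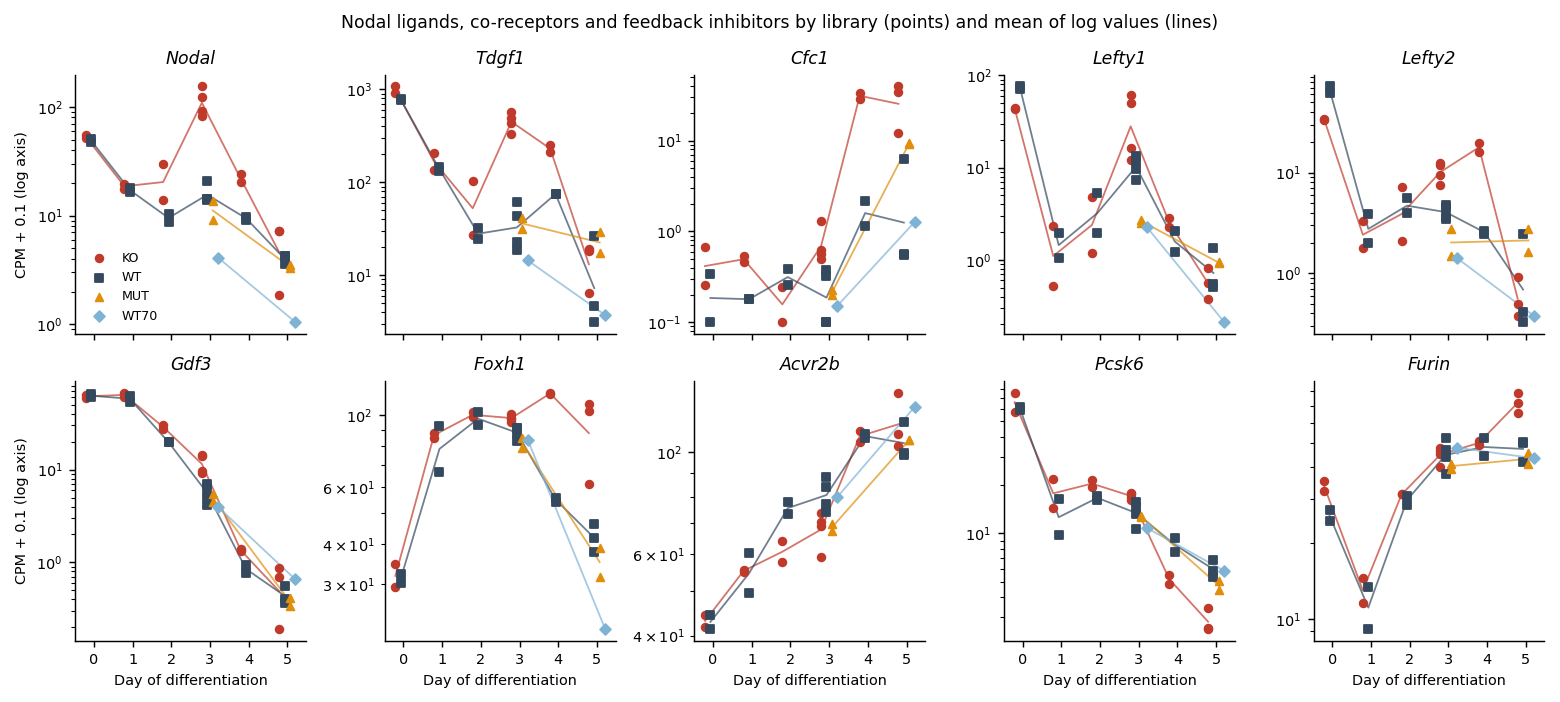
Level of each member against day of differentiation, as CPM + 0.1 on a log axis. Points are libraries, lines join means of log values, and KO, WT, MUT and WT70 have their own colour and marker. *Nodal* and *Tdgf1* peaked again in KO cells on day 3, at means of 112 and 457 CPM against 15.7 and 36.4 CPM in WT.

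No member passed between KO and WT cells on days 0, 1 and 2, when 0.866%, 0.634% and 0.616% of all genes passed. At an unadjusted p under 0.05 there were 2, 1 and 3 members on these days. The share of all genes at that p is not given, so these counts are not read as particular to the members. DESeq2 called 0, 0 and 1 of them, and limma on log2(TPM + 1) called 0 on each day. *Nodal* on day 0 was at 55.2 and 51.0 CPM in KO, against 50.1 and 47.2 CPM in WT. On day 1 it was at 17.5 and 19.5 CPM in KO, against 16.2 and 17.9 CPM in WT. In both genotypes the ligand gene was lower on day 1 than in ESCs. Day 0 came from experiment 1 and day 1 from experiment 2, and this difference was not tested. *Tdgf1* had 918 and 1080 CPM in KO ESCs, against 777 and 781 CPM in WT ESCs. The paired inhibitors lay the other way on day 0. *Lefty1* was at 43.6 and 44.7 CPM in KO and at 71.0 and 76.0 CPM in WT (log2 fold change -0.74, SE 0.41, adjusted p = 0.4). *Lefty2* was at 33.9 and 33.4 CPM in KO and at 61.9 and 71.9 CPM in WT (-0.99, SE 0.45, adjusted p = 0.263). Neither difference passed, though the libraries did not overlap, which held for 47.4% of all genes that day.

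On day 2 the KO lines stood apart from each other. *Nodal* was at 29.4 CPM in KO1 and 13.9 CPM in KO15, against 10.2 CPM in WT7 and 8.66 CPM in WT34 (log2 fold change 1.21, SE 0.34, adjusted p = 0.0708). *Tdgf1* was at 102 CPM in KO1 and 26.9 CPM in KO15, against 31.9 CPM in WT7 and 24.3 CPM in WT34 (1.20, SE 0.60, adjusted p = 0.451). KO1 was the high library for both genes, and without it *Tdgf1* was at -0.05. *Nodal* passed in DESeq2 (adjusted p = 0.0177), and without KO15 its log2 fold change was 1.64. Over its 12 alternatives the log2 fold change ran from 0.57 to 1.64, and in 9 of them it did not pass, as in the main fit. *Gdf3*, the other ligand, was at 30.4 and 26.9 CPM in KO, against 19.6 and 19.5 CPM in WT (0.55, SE 0.14, adjusted p = 0.0401), short of the fold threshold. The summed level of 5 primitive streak genes on day 2 was 25.8 to 26.1 CPM in KO and 7.54 to 7.81 CPM in WT. *Cfc1* had 11 counts in KO and 2 in WT on day 1, a ratio of 4.91 (95% interval 1.07 to 45.6, counting error only), and 2 counts in KO and 6 in WT on day 2, a ratio of 0.304 (0.03 to 1.7).

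Day 3 was the day with the most members past the threshold. Of the 10 members 5 rose in KO cells (*Nodal*, *Tdgf1*, *Lefty1*, *Lefty2* and *Gdf3*), 0 fell and 5 did not pass, beside 2.09% of all genes that rose and 1.87% that fell. The median log2 fold change was 1.20 over the members and 0.01 over all genes. These 5 are the ligands, the main co-receptor and both inhibitors. The receptor, the convertases and the cofactor were not among them.

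*Nodal* (mm10 chromosome 10, 61417972 to 61425338, + strand) was at 154, 122, 90.8 and 82.0 CPM in KO cells on day 3, against 14.1, 13.7, 20.7 and 14.2 CPM in WT cells. Every KO library lay above every WT library. In either direction, KO and WT libraries did not overlap for 8 members and for 19.3% of all genes that day. The log2 fold change was 2.79 (SE 0.23, adjusted p = 3.58e-09), with 3.31 in experiment 1 and 2.33 in experiment 2. In those experiments taken alone, 5 and 3 members rose, beside 2.09% and 1.51% of all genes. *Gdf3* (chromosome 6, 122605403 to 122610087, − strand), a ligand that binds the same receptors, was at 14.1, 13.9, 9.57 and 8.99 CPM in KO, against 6.94, 6.33, 4.05 and 5.06 CPM in WT (1.04, SE 0.11, adjusted p = 1.95e-07). Its fold lay at the threshold: the log2 fold change was 1.00 in experiment 2 alone and without WT34 of experiment 1, which ended the call, and 0.82 with limma on log2(TPM + 1), a scale that understates the change of low genes.

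*Tdgf1* (chromosome 9, 110939603 to 110946158, − strand), also called Cripto, is the EGF-CFC co-receptor of the epiblast. It was at 572, 498, 432 and 327 CPM in KO cells, against 22.8, 18.6, 61.4 and 42.8 CPM in WT cells. The log2 fold change of 3.78 (SE 0.45, adjusted p = 1.1e-06) was the largest of any member that passed on this day. In experiment 1 it was 4.69 and in experiment 2 it was 2.88, and the WT libraries of experiment 2 were the higher ones. The other co-receptor, *Cfc1* (chromosome 1, 34535648 to 34544313, + strand), also called Cryptic and known for left-right patterning, was at 1.19, 0.393, 0.528 and 0.464 CPM in KO, against 0.277, 0, 0 and 0.222 CPM in WT. A count of 0 allowed up to 0.216 CPM in WT34 of experiment 1 and 0.225 CPM in WT7 of experiment 2. At this depth *Cfc1* did not pass (2.11, SE 0.97, adjusted p = 0.161).

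*Lefty1* was at 61.9, 49.7, 16.3 and 12.1 CPM in KO cells, against 11.8, 13.2, 9.46 and 7.17 CPM in WT cells. The KO libraries of experiment 1 stood well above those of experiment 2, and the lowest KO library overlapped the WT range. It rose with a log2 fold change of 1.50 (SE 0.31, adjusted p = 0.00112), and in experiment 2 alone it was 0.78 (adjusted p = 0.245, the range over its alternatives being 4.79e-23 to 0.245). *Lefty2* was at 12.5, 11.7, 9.33 and 7.39 CPM in KO, against 4.37, 4.67, 3.53 and 3.40 CPM in WT (1.35, SE 0.36, adjusted p = 0.00919, with a fold of 0.94 in limma that ended the call). Summed as 1 gene, the inhibitors had 74.3, 61.4, 25.6 and 19.5 CPM in KO, against 16.2, 17.8, 13.0 and 10.6 CPM in WT (1.52, SE 0.31, adjusted p = 0.00101). The sum passed too, and *Lefty1* made up most of it in KO.

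*Foxh1* (chromosome 15, 76668225 to 76669948, − strand) was at 95.1 to 101 CPM in KO on day 3 and 83.0 to 91.3 CPM in WT (log2 fold change 0.15, adjusted p = 0.42). *Acvr2b* (chromosome 9, 119402118 to 119434995, + strand), which binds Nodal and activins, was at 59.2 to 73.5 CPM in KO and 74.1 to 88.2 CPM in WT (-0.25, SE 0.08, adjusted p = 0.0397), with a fold short of the threshold. *Pcsk6* (chromosome 7, 65861734 to 66050386, + strand), whose product PACE4 cuts pro-Nodal, was at 16.1 to 17.8 CPM in KO and 10.6 to 15.5 CPM in WT (0.35, adjusted p = 0.109). *Furin* (chromosome 7, 80388585 to 80405436, − strand), a widely expressed convertase, was at 40.1 to 47.7 CPM in KO and 37.5 to 52.0 CPM in WT (0.00, SE 0.10). None of these 4 genes passed on day 3.

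**Figure D2:**
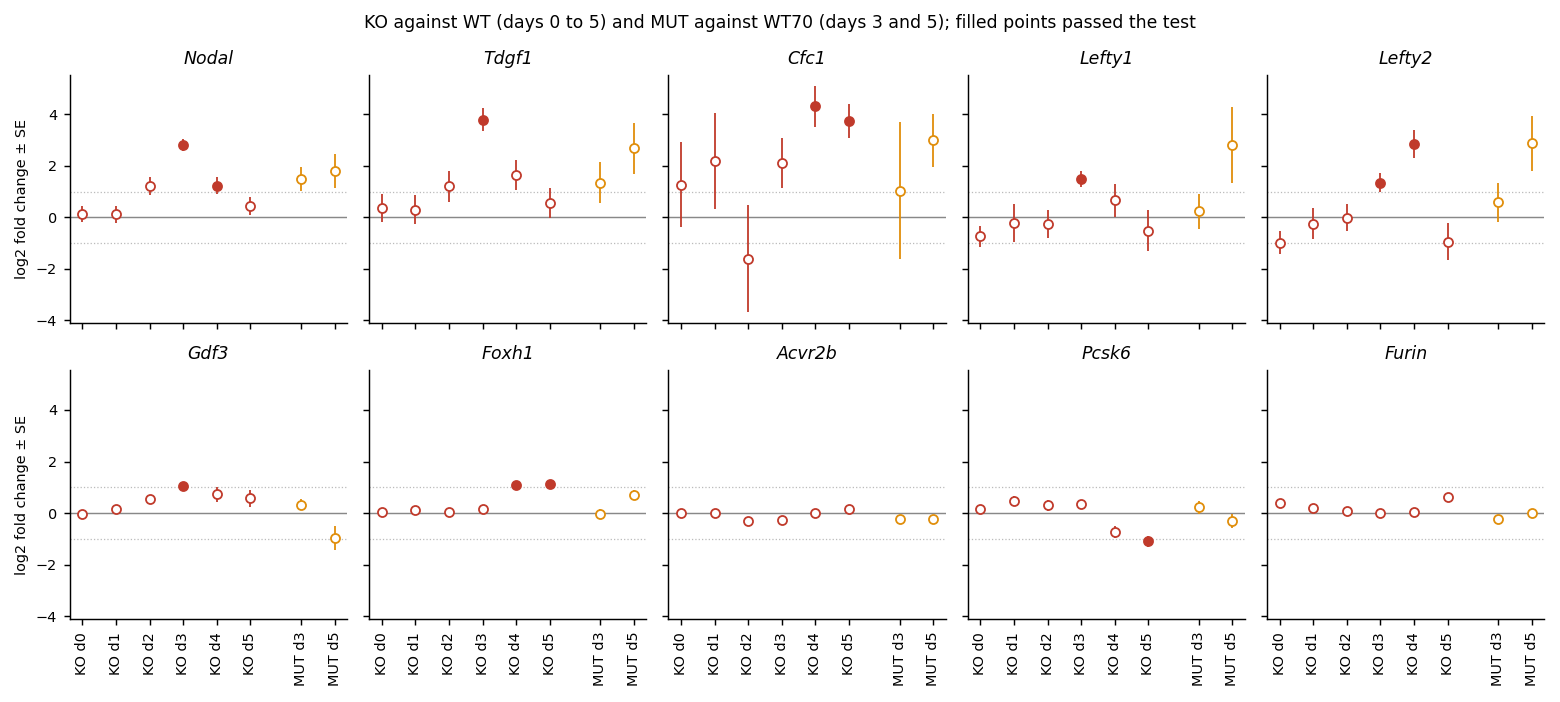
Log2 fold change with its SE for each member, KO against WT on days 0 to 5 (red) and MUT against WT70 on days 3 and 5 (orange). Filled points passed the test, and dotted lines mark a log2 fold change of 1 in either direction. Of the ligands, co-receptors and inhibitors 5 passed on day 3, and no MUT point is filled.

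The difference on day 3 was larger than that on day 0 for the same 5 members. The KO effect on day 3 minus that on day 0 was 2.66 (SE 0.38, adjusted p = 0.000107) for *Nodal*, 3.42 (SE 0.71, adjusted p = 0.00322) for *Tdgf1* and 2.24 (SE 0.51, adjusted p = 0.0072) for *Lefty1*. It was 2.35 (SE 0.57, adjusted p = 0.0117) for *Lefty2* and 1.06 (SE 0.17, adjusted p = 0.000348) for *Gdf3*. These 5 of 10 members stand beside 0.907% of all genes whose effect rose. *Lefty2* lost this call without KO1, KO15 or WT34 of day 0 (adjusted p = 0.0538, 0.0668 and 0.0608, within 1.77e-14 to 0.0668 over its alternatives).

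The courses within each genotype show what the difference was made of. In WT cells 6 members fell by day 3 (*Nodal*, *Tdgf1*, *Lefty1*, *Lefty2*, *Gdf3* and *Pcsk6*) and 1 rose (*Foxh1*), while 9.62% of all genes fell and 12.9% rose. *Nodal* had 15.7 ± 3.37 CPM on day 3 (SD, n = 4), against 48.6 ± 2.05 CPM on day 0 (n = 2), a log2 fold change of -1.43 (SE 0.29). In KO cells *Nodal* and *Foxh1* rose, *Tdgf1*, *Lefty2*, *Gdf3* and *Pcsk6* fell, beside 10.8% of all genes that rose and 10.4% that fell. *Nodal* had 112 ± 32.8 CPM on day 3 (n = 4), against 53.1 ± 3.02 CPM on day 0 (n = 2), a change of 1.23 (SE 0.28, adjusted p = 0.000882). *Lefty1* in KO cells had 35 ± 24.6 CPM on day 3, against 44.1 ± 0.792 CPM on day 0 (0.05, SE 0.37, in a fit with a term for experiment 2, whose KO libraries of day 3 were the lower ones). Its level between these days, sampled only in experiment 2, was low, at 2.25 and 0.416 CPM on day 1 and 4.67 and 1.10 CPM on day 2. *Foxh1* rose in both, by 1.72 (SE 0.15) in KO and 1.60 (SE 0.15) in WT cells, and the difference of these rises was 0.12 (SE 0.20, adjusted p = 0.839). The fall of *Tdgf1* in KO cells (-1.31, SE 0.48, adjusted p = 0.0279) was lost without KO1 or KO15 of day 0 and without KO1 or KO15 of experiment 2 (adjusted p = 0.0626, 0.133, 0.0517 and 0.0546). It was also lost in DESeq2 (adjusted p = 0.0661), in limma (0.107), without the term for experiment 2 (0.0711) and on the compared libraries alone, where the fold was -0.93.

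On day 4, of the 10 members 4 rose (*Nodal*, *Cfc1*, *Lefty2* and *Foxh1*), 0 fell and 6 did not pass, beside 3.4% of all genes that rose and 4.28% that fell. *Cfc1* was at 33.5 and 28.7 CPM in KO, against 2.08 and 1.06 CPM in WT (log2 fold change 4.31, SE 0.79, adjusted p = 0.000285). *Lefty2* was at 15.9 and 19.8 CPM in KO, against 2.38 and 2.54 CPM in WT (2.85, SE 0.54, adjusted p = 0.000385). *Foxh1* was at 116 and 117 CPM in KO, against 55.5 and 54.0 CPM in WT (1.09, SE 0.16, adjusted p = 1.31e-05). The cofactor gene was thus not below its day 3 level in KO cells, while both WT libraries were. *Nodal* was at 23.8 and 20.1 CPM in KO, against 9.06 and 9.65 CPM in WT (1.23, SE 0.34, adjusted p = 0.0121). With 2 libraries in each genotype this call was lost without KO1, WT7 or WT34 (adjusted p = 0.0927, 0.0904 and 0.0657, within 1.88e-12 to 0.0927 over its alternatives). *Tdgf1* was at 252 and 211 CPM in KO, against 73.9 and 75.5 CPM in WT (1.63, SE 0.58, adjusted p = 0.0539, with 1.04e-05 on the compared libraries alone and 0.211 without WT7).

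The 2 inhibitors parted on day 4. *Lefty1* was at 2.74 and 2.15 CPM in KO and at 1.11 and 1.97 CPM in WT (0.66, adjusted p = 0.573), so that it made up 14.7% and 9.79% of the Lefty sum in KO, against 31.9% and 43.8% in WT. On day 3 its share had been 62.1% to 83.2% in KO and 67.8% to 73.8% in WT. The sum of both genes on day 4 was 18.6 and 21.9 CPM in KO, against 3.49 and 4.51 CPM in WT (2.34, SE 0.51, adjusted p = 0.00171).

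**Figure D3:**
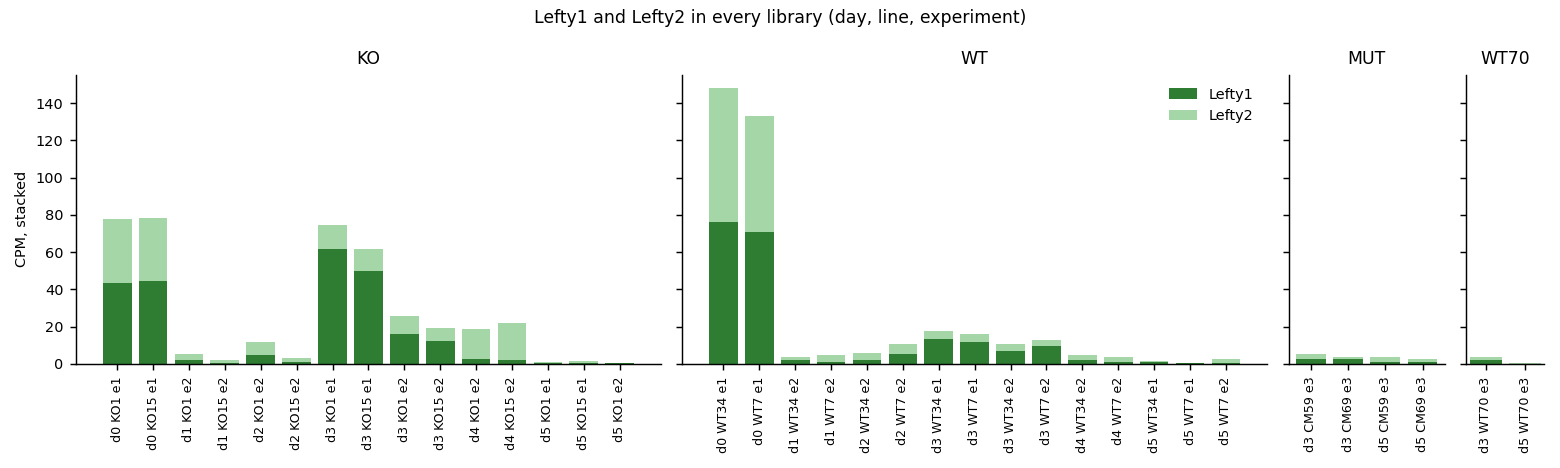
*Lefty1* (dark) and *Lefty2* (light) stacked in CPM for every library, by genotype and then by day, line and experiment (e). On day 0 the sum was 77.5 and 78.1 CPM in KO, against 133 and 148 CPM in WT, and on day 3 KO cells reached 74.3 CPM in experiment 1 and 25.6 CPM in experiment 2.

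By day 5 the ligands and *Tdgf1* had dropped in both genotypes. *Nodal* in KO cells averaged 5.31 ± 3.06 CPM on day 5 (SD, n = 3) and in WT cells 3.92 ± 0.383 CPM (n = 3). From day 3 to day 5 it fell by 4.42 on the log2 scale in KO (SE 0.29) and by 2.07 in WT (SE 0.30). *Lefty1* fell by 6.21 in KO (SE 0.52) and by 4.19 in WT (SE 0.51), and *Gdf3* fell by 4.57 in KO (SE 0.18), while in WT it fell by 4.10 (SE 0.22). Over these days 6 members fell and 1 rose (*Cfc1*) in KO, and 7 fell and 1 rose (*Cfc1*) in WT, where *Foxh1* was the further gene. Of all genes 10.9% fell and 11.4% rose in KO, and 7.99% fell and 7.49% rose in WT. The rise of *Cfc1* in WT rested on WT7 of experiment 2 (log2 fold change 3.98, and 1.09 with adjusted p = 0.291 without it), and the fall of *Tdgf1* in WT (-1.63, adjusted p = 0.0125) was lost without WT7 or WT34 of day 5 in experiment 1 and without WT7 of day 3 in experiment 2 (adjusted p = 0.0784, 0.0838 and 0.0523). *Acvr2b* and *Furin* had their highest means on day 5, in WT70 (125 CPM) and in KO (71.9 CPM).

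The KO effect on day 5 was lower than on day 3 for *Nodal* (difference -2.35, SE 0.41, adjusted p = 0.000131), *Tdgf1* (-3.21, SE 0.71, adjusted p = 0.00147), *Lefty2* (-2.29, SE 0.81, adjusted p = 0.0421) and *Pcsk6* (-1.45, SE 0.26, adjusted p = 0.000142). These 4 members stand beside 4.25% of all genes whose effect fell. Without WT7 of experiment 2 on day 5 the difference was -1.68 (adjusted p = 0.133) for *Tdgf1* and -0.26 (adjusted p = 0.909) for *Lefty2*, while *Cfc1* passed at 4.11 (adjusted p = 0.00243), against 1.63 (adjusted p = 0.461) with it. The *Lefty2* call was also lost without KO1 or KO15 of experiment 1 or KO1 of experiment 2 on day 3, without KO1 of either experiment on day 5, and without WT7 of either experiment or WT34 of experiment 2 on day 3, at adjusted p of 0.0503 to 0.1.

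On day 5 itself 2 members rose in KO cells (*Cfc1* and *Foxh1*), 1 fell (*Pcsk6*) and 7 did not pass, beside 5.99% of all genes that rose and 5.73% that fell. Since this day was measured in 2 experiments, each is given on its own. *Cfc1* in experiment 1 was at 39.4 and 34.0 CPM in KO, against 0.454 and 0.464 CPM in WT. In experiment 2 it was at 12 CPM in KO1 and 6.14 CPM in WT7. The KO library remained above the WT library there, but the WT7 library of experiment 2 stood far above both WT libraries of experiment 1. The log2 fold change was 3.74 over both experiments (SE 0.67, adjusted p = 0.000101), 6.30 in experiment 1 (SE 0.52) and 0.97 in experiment 2 (SE 0.53, adjusted p = 0.266), and 6.18 without that WT7 library. The difference between the experiments passed in the fit (-5.33, SE 0.77, adjusted p = 0.000323). Experiment 2 has 1 library per genotype on day 5, so its effects have no replicate check there, and their SE assumes that these libraries vary like the other groups.

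*Tdgf1* turned round between the experiments. In experiment 1 it was at 18.3 and 19.1 CPM in KO, against 4.54 and 3.01 CPM in WT, and rose (log2 fold change 2.30, SE 0.52, adjusted p = 0.00135), as 6.16% of all genes did there. In experiment 2 it was at 6.28 CPM in KO1, against 26.2 CPM in WT7 (-2.06, SE 0.68, adjusted p = 0.0431 with the spread of the other groups), and 4.02% of all genes were lower past the threshold between these 2 libraries. Over both it was 0.57 (SE 0.58, adjusted p = 0.527), without WT7 of experiment 2 it was 2.00 (adjusted p = 0.0195), and the difference of the effects was -4.36 (SE 0.86, adjusted p = 0.00518). *Tdgf1* and *Cfc1*, both co-receptors, were the members for which this difference passed, beside 1.12% of all genes with a lower effect in experiment 2. On day 3 both lines were present in both experiments. No member's difference between the experiments passed then, while 0.00463% of all genes (1 gene) passed. There were 3 members at an unadjusted p under 0.05, and the share of all genes at that p is not given. DESeq2 called 0 members and limma 0.

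*Nodal* on day 5 was at 7.04 and 7.11 CPM in KO, against 4.16 and 3.48 CPM in WT, in experiment 1, and at 1.78 CPM in KO1, against 4.11 CPM in WT7, in experiment 2. The difference of the effects did not pass (-2.09, SE 0.65, adjusted p = 0.0987), but did in DESeq2 (adjusted p = 0.00595). *Lefty2* was at 0.399 and 0.829 CPM in KO, against 0.227 and 0.309 CPM in WT, in experiment 1, and at 0.281 CPM in KO1, against 2.36 CPM in WT7, in experiment 2 (-4.23, SE 1.41, adjusted p = 0.131, and 0.015 in DESeq2). The WT7 library of experiment 2 was thus the highest WT library for *Tdgf1*, *Cfc1* and *Lefty2*. It also stood apart in markers. The summed level of 5 primitive streak genes (*T*, *Eomes*, *Mixl1*, *Gsc* and *Mesp1*) was 36.3 TPM there, against 3.78 and 5.42 TPM in the WT libraries of experiment 1, while KO libraries had 40.7 and 49.1 TPM in experiment 1 and 66.1 TPM in experiment 2. Its 6 neural progenitor genes summed to 49.8 TPM, against 41.5 and 46.3 TPM in the other WT libraries. Its 5 definitive endoderm genes summed to 50.8 TPM, against 11.3 and 11.6 TPM in those libraries. Its 5 mesoderm genes summed to 14.7 TPM, against 5.35 and 3.93 TPM. On day 4, sampled only in experiment 2, the primitive streak sum was 32.3 TPM in WT7 and 32.4 TPM in WT34. The 6 naive ESC genes separated the experiments on day 5, with 18.0 and 16.7 TPM in KO, against 9.46 and 10.3 TPM in WT, in experiment 1, and with 2.29 TPM in KO1, against 1.5 TPM in WT7, in experiment 2. In all 4 lines of experiment 1 they were above their day 3 sums, which were 9.62 and 8.94 TPM in KO, against 5.78 and 5.46 TPM in WT. *Tdgf1* is high in ESCs (777 to 1080 CPM on day 0). The part of these markers in the day 5 results was not tested. With 1 library per genotype on day 5 of experiment 2, library and experiment cannot be told apart on that day.

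**Figure D4:**
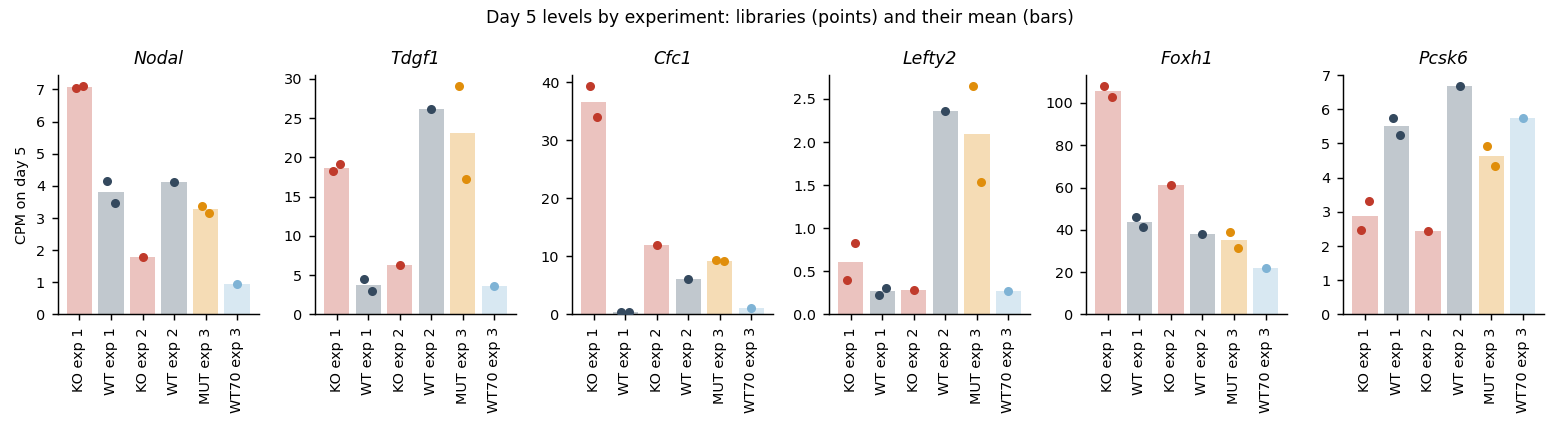
Day 5 level in CPM of 6 members by genotype and experiment (exp), with libraries as points and their mean as bars. In experiment 2 WT7 exceeded KO1 for *Tdgf1* (26.2 against 6.28 CPM in KO1), while *Foxh1* was higher and *Pcsk6* lower in KO in both experiments.

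*Foxh1* and *Pcsk6* kept their directions in both experiments. *Foxh1* on day 5 was at 108, 103 and 61.0 CPM in KO, against 46.1, 41.5 and 37.8 CPM in WT, and rose (log2 fold change 1.11, SE 0.13, adjusted p = 2.56e-07). *Pcsk6* was at 2.46, 3.32 and 2.44 CPM in KO, against 5.75, 5.25 and 6.68 CPM in WT, and fell (-1.10, SE 0.21, adjusted p = 0.000215). Both groups were separate for both genes, which held for 30.3% of all genes. Their folds lay near the threshold, at 1.0 and -1.0 without KO1 of experiment 1, and that of *Pcsk6* was -0.92 without WT7 of experiment 2. In limma on log2(TPM + 1) *Pcsk6* was at -0.37 (adjusted p = 0.279). In experiment 2 alone *Foxh1* was at 0.69, short of the threshold. *Furin*, which can also cut pro-Nodal, was at 78.6, 65.6 and 71.6 CPM in KO, against 50.3, 49.8 and 41.8 CPM in WT (0.61, SE 0.11, adjusted p = 0.000112), with the libraries separate and the fold short of the threshold. The convertase pair therefore lay in opposite directions on day 5.

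No member passed between MUT and WT70, where 0.148% of all genes passed on day 3 and 1.87% on day 5. At an unadjusted p under 0.05 there was 1 member on day 3 and there were 5 on day 5. The share of all genes at that p is not given, so these counts are not read as particular to the members. DESeq2 called 0 and 3 members, and limma on log2(TPM + 1) called 0 and 0. On the compared libraries alone, edgeR had only the 2 MUT libraries of a day to estimate the spread. Its calls are therefore not given. The comparison rests on 1 WT70 library per day, whose spread was taken from the other groups. On day 3 *Nodal* was at 13.5 and 9.04 CPM in MUT, against 4.00 CPM in WT70 (log2 fold change 1.49, SE 0.46, adjusted p = 0.391). *Tdgf1* was at 41.4 and 31.1 CPM in MUT, against 14.3 CPM in WT70 (1.34, SE 0.79, adjusted p = 0.927). Both MUT libraries lay above WT70 for these genes (2 libraries did not overlap 1 for 73.7% of all genes), yet within or below the range of WT7 and WT34 in the other experiments, 13.7 to 20.7 CPM for *Nodal* and 18.6 to 61.4 CPM for *Tdgf1*. *Lefty1* on day 3 was at 2.63 and 2.42 CPM in MUT and 2.16 CPM in WT70, below the 7.17 to 13.2 CPM of WT7 and WT34.

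On day 5 both MUT libraries lay above WT70 for *Nodal*, the co-receptors and the inhibitors, though not for the ligand *Gdf3*, and MUT and WT70 did not overlap for 77.1% of all genes. *Cfc1* was at 9.37 and 9.14 CPM in MUT, against 1.17 CPM in WT70 (2.98, SE 1.03, adjusted p = 0.124). *Tdgf1* was at 29.1 and 17.2 CPM in MUT, against 3.62 CPM in WT70 (2.67, SE 0.98, adjusted p = 0.156). *Nodal* was at 3.39 and 3.17 CPM in MUT, against 0.946 CPM in WT70 (1.79, SE 0.66, adjusted p = 0.163). WT7 and WT34 had 3.48 to 4.16 CPM, above both MUT libraries, and with them as control the log2 fold change was -0.39. *Lefty2* was at 2.65 and 1.54 CPM in MUT, against 0.278 CPM in WT70 (2.87, SE 1.06, adjusted p = 0.162). *Nodal*, *Tdgf1* and *Lefty2* were the members that passed in DESeq2, with adjusted p of 0.0243, 0.043 and 0.0393. For *Lefty1*, 33 counts in MUT stood against 2 in WT70, a ratio of 7.48 (95% interval 1.91 to 64.3, counting error only). The MUT libraries, at 0.847 and 0.818 CPM, lay within the 0.405 to 1.24 CPM of WT7 and WT34. *Foxh1* was at 38.9 and 31.6 CPM in MUT, against 21.8 CPM in WT70 (0.69, SE 0.20, adjusted p = 0.0633). The 5 primitive streak genes summed to 38.6 and 32.5 TPM in MUT, against 4.93 TPM in WT70, and their part in these differences was not tested. In the other experiments WT7 and WT34 had 3.78, 5.42 and 36.3 TPM of these genes, the last in WT7 of experiment 2. That library was also at 26.2 CPM for *Tdgf1* and 2.36 CPM for *Lefty2*, between the MUT libraries. For *Cfc1* it was at 6.14 CPM, below both. WT7 and WT34 of experiment 1 lay below both MUT libraries for these members, at 0.227 (*Lefty2*) to 4.54 CPM (*Tdgf1*).

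Within MUT cells 5 members fell between days 3 and 5 and *Cfc1* rose (6.26, SE 1.04, adjusted p = 2.8e-05), beside 8.59% of all genes that fell and 8.8% that rose. The fall of *Lefty1* (-1.59, adjusted p = 0.0444) was lost without any 1 of the 4 MUT libraries. Between the single WT70 libraries of days 5 and 3, which have no replicate check, 4 members were lower past the threshold and 0 higher, beside 7% and 5.25% of all genes. For *Lefty1* this came from few counts, 2 on day 5 and 42 on day 3, a ratio of 0.0516 (95% interval 0.00605 to 0.198, counting error only). *Lefty2* in MUT did not pass, at 2.65 and 1.54 CPM on day 5 and 2.63 and 1.40 CPM on day 3 (0.06, SE 0.58), and its course in WT70 was -2.23 (SE 1.23, adjusted p = 0.207). *Cfc1* in WT70 had 21 counts on day 5 and 1 on day 3, a ratio of 22.8 (95% interval 3.66 to 941).

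The KO effect and the MUT effect were not separated for any member. On day 3 the difference was 2.44 (SE 0.87, adjusted p = 0.314) for *Tdgf1*, 1.30 (SE 0.51, adjusted p = 0.403) for *Nodal*, 1.27 (SE 0.74, adjusted p = 0.736) for *Lefty1* and 0.70 (SE 0.23, adjusted p = 0.249) for *Gdf3*, while 0.394% of all genes passed. On day 5 it was -3.80 (SE 1.30, adjusted p = 0.0921) for *Lefty2*, -2.10 (SE 1.14, adjusted p = 0.373) for *Tdgf1*, -1.35 (SE 0.76, adjusted p = 0.401) for *Nodal* and 0.76 (SE 1.20, adjusted p = 0.847) for *Cfc1*, while 3.62% of all genes passed. Members at an unadjusted p under 0.05 numbered 3 and 5, and the share of all genes at that p is not given. DESeq2 called 0 and 1 members, and limma called 0 and 0. Leaving out a day 5 library made 1 call: *Cfc1* passed at 3.19 (adjusted p = 0.0176) without WT7 of experiment 2, and *Lefty2* at -4.32 and -4.27 (adjusted p = 0.0391 and 0.0486) without WT7 or WT34 of experiment 1. Against WT7 and WT34 in place of WT70, 5 members differed between KO and MUT on day 3 and 2 on day 5. These values then also hold the difference between experiments. No share of all genes under this control stands beside the counts, so they are not read as particular to the members.

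Other genes of the pathway were counted in lists drawn from general knowledge, with earlier results of these data known, so their counts are a description. In these lists *Cer1*, *Smad7* and *Pmepa1* stand both as targets and as antagonists. Of 18 target genes of Nodal and Activin signalling in the embryo, 14 rose in KO cells on day 3, 0 fell and 4 did not pass. Of all genes 2.09% rose and 1.87% fell. The median log2 fold change was 3.21 over the targets, against 0.01 over all genes. The streak gene *T* had 206 ± 12.6 CPM in KO, against 3.12 ± 1.36 CPM in WT (SD, n = 4 each; 6.21, SE 0.46). *Foxa2*, an endoderm and node factor, had 52.7 ± 3.62 CPM, against 2.08 ± 0.889 CPM in WT (4.72, SE 0.34). *Mixl1*, a streak homeobox gene, had 47.9 ± 11.9 CPM, against 1.08 ± 0.555 CPM in WT (5.45, SE 0.42). The 5 primitive streak markers overlap this list and summed to 392 to 690 CPM in KO on day 3, against 12 to 24.8 CPM in WT, with none at 0. On day 4 they summed to 576 to 590 CPM in KO. *Nodal* then averaged 22 CPM and *Tdgf1* 231 CPM in KO, against 112 and 457 CPM on day 3. The part of these markers in the levels of *Nodal* and *Tdgf1* was not tested. On day 4 the target list had 12 higher and 0 lower, beside 3.4% and 4.28% of all genes. On day 5 it had 11 higher and 1 lower, beside 5.99% and 5.73% of all genes. The lower gene was *Nanog* (9.34 ± 3.80 CPM in KO, against 39.4 ± 10.6 CPM in WT, n = 3 each). *Sox17*, the endoderm factor, had 37.2 ± 1.92 CPM in KO on day 5, against 4.84 ± 5.42 CPM in WT (3.32, SE 0.41).

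Of 20 antagonists and feedback genes other than the Lefty pair, 4 rose in KO on day 3, 0 fell and 16 did not pass, beside the 2.09% of all genes that rose. *Fst*, whose product follistatin binds activins, had 193 ± 5.22 CPM in KO, against 15.8 ± 9.73 CPM in WT (log2 fold change 3.83, SE 0.32). *Smad7*, an inhibitory SMAD, had 53.8 ± 24.7 CPM, against 17.0 ± 4.67 CPM in WT (1.58, SE 0.20), and *Pmepa1*, which restrains SMAD2 and SMAD3, had 46.8 ± 16.1 CPM, against 11.0 ± 1.89 CPM in WT (2.00, SE 0.26). On day 4 *Cer1*, a secreted antagonist of Nodal, had 126 ± 7.81 CPM in KO, against 6.14 ± 1.61 CPM in WT (n = 2 each; 4.36, SE 0.64). With *Dand5* it made up the 2 genes of this list that rose that day, and on day 5 *Cer1* and *Smad7* rose and *Tmeff2* fell, counts near the 5.99% and 5.73% of all genes. None of 9 SMADs and nuclear cofactors passed on days 0 to 5. Of 7 tested receptors and other convertases, 2 rose on day 3 and 3 on each of days 4 and 5, beside 2.09%, 3.4% and 5.99% of all genes. *Tgfbr3*, the betaglycan co-receptor of TGF-β and inhibin, was at 76.2 ± 3.21 CPM in KO on day 3, against 12.7 ± 2.07 CPM in WT (2.60, SE 0.10). *Pcsk5*, a further convertase, rose on days 2 to 5, with 9.12 ± 1.97 CPM in KO on day 4, against 1.58 ± 0.554 CPM in WT (2.52, SE 0.37). Of 8 other ligands *Bmp4* rose and *Tgfb2* fell on day 3, *Inhba* and *Tgfb1* rose on day 4, and *Tgfb1* and *Tgfb2* rose on day 5.

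In MUT cells 0 genes of these lists passed on day 3, when the target list had a median of 0.90. On day 5 *T*, *Lhx1* and *Sox17* rose and *Otx2* fell among the 18 targets, and 14 did not pass. Of all genes 1.26% rose and 0.611% fell, with 1 WT70 library as control. *T* had 87.7 ± 7.60 CPM in MUT (n = 2), against 12.5 CPM in WT70 (2.81, SE 0.69, adjusted p = 0.0231). *Sox17* had 20.8 ± 1.56 CPM in MUT, against 3.95 CPM in WT70 (2.40, SE 0.63, adjusted p = 0.0352). *Fst* and *Dact2* rose among the 20 antagonists and 18 did not pass, with *Fst* at 60.6 ± 5.04 CPM in MUT, against 15.5 CPM in WT70. *Tgfb1* and *Tgfb2* rose among the 8 other ligands and 6 did not pass.

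Over the 16 group means of log2 CPM, the genes whose pattern was most like that of *Nodal*, out of 15513 compared, were *Plekhf2* (Pearson r = 0.93), *Tdgf1* (0.92), *Epha2* (0.92), *1700030N03Rik* (0.91) and *Chmp4c* (0.91). Among the members *Tdgf1* ranked 2nd, *Lefty1* 36th with 0.85, *Lefty2* 41st with 0.84, *Gdf3* 565th with 0.71 and *Pcsk6* 576th with 0.71. *Foxh1* was at 0.32, *Cfc1* at -0.29, *Furin* at -0.32 and *Acvr2b* at -0.74. The group means share lines, experiments and the same course of days, so these values are a description.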

How the data were processed

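Expected counts and TPM were deposited by the authors, who used Trim Galore 0.6.4 for trimming, Salmon 0.14.1 with the GENCODE M23 transcriptome (mm10) for quantification, and tximport to reach 54281 genes. Counts were rounded to whole numbers and scaled by TMM. The main test was edgeR 4.0.16's quasi-likelihood F test in R 4.3.3, in 1 fit of 36 libraries with 16 group means and a term for experiment 2 (19 residual degrees of freedom), on the 21601 genes that passed filterByExpr (minimum count 10, minimum total 15), with Benjamini-Hochberg adjustment over all of them. A gene passed at an adjusted p under 0.05 and a log2 fold change beyond 1. Experiments were compared in a fit with KO and WT groups of days 3 and 5 split by experiment (16 residual degrees of freedom). The SE is the log2 fold change divided by the root of F. DESeq2 1.42.0, limma 3.58.1 on log2(TPM + 1), no filter, other controls, a stricter fold, and leaving out each library were alternatives.

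Every member was named. Of each pathway list up to 3 genes with the smallest p among those that passed were named, and for likeness the 5 with the highest r. *Nanog* and *Otx2* were named after their values were seen. The members and lists were chosen with earlier results of these data known. Libraries of the same line recur across days, so a fit with the line as a block was run. Deviations of same-line libraries correlated at -0.088 to 0.0658 over 21 pairs of days in each genotype. The fit of KO against WT on day 3 was tested on simulated counts with the same spread for all genes and no line or experiment differences. That simulation does not bear on the other comparisons. Intervals cover counting error only.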

Additional observations from a re-analysis of the deposited data

Results flagged for a closer look

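In 2 of 20 sets of 4 libraries (a member in a group), the gap between an end library and its neighbour, divided by the range, was above Dixon's 95% critical value, which by its definition marks about 1 in 20 sets by chance. *Nodal* was at 20.7 CPM in WT7 of experiment 2 on day 3, with the other WT libraries at 13.7 to 14.2 CPM. *Cfc1* was at 1.19 CPM in KO1 of experiment 1 on day 3, with the other KO libraries at 0.393 to 0.528 CPM.

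The KO effect on day 3 exceeded that on day 0 in edgeR's test of the difference for *Nodal* (2.66), *Tdgf1* (3.42), *Lefty1* (2.24), *Lefty2* (2.35) and *Gdf3* (1.06), all log2. The KO effect on day 5 lay below that on day 3 for *Nodal* (-2.35), *Tdgf1* (-3.21), *Lefty2* (-2.29) and *Pcsk6* (-1.45). Both sets of differences use the same day 3 libraries. Between experiments, the day 5 KO effect was lower in experiment 2 for *Tdgf1* (-4.36) and *Cfc1* (-5.33), with 1 library per genotype in experiment 2.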

How the results depend on the processing

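Of 1484 values for single members under alternatives, 1327 kept their direction and side of the threshold, 75 lost the call, 72 gained it, and 10 turned in direction, 3 of them past the threshold. Those 3 were *Tdgf1* between KO and WT on day 5 (-2.06 in experiment 2 alone) and *Lefty1* between MUT and WT cells on day 3 (-2.10 with all WT libraries as control, -2.68 with WT7 and WT34). The 7 others passed in neither fit. They were *Nodal* between MUT and WT cells on day 3 (-0.24 with all WT libraries, -0.68 with WT7 and WT34), and, with WT7 and WT34, *Nodal* (-0.39) and *Lefty1* (-0.08) on day 5. The rest were *Nodal* between the KO and MUT effects on day 5 (0.28 and 0.83 with these controls) and *Tdgf1* between KO and WT on day 2 (-0.05 without KO1). With the line as a replicate block, KO and WT differed for 5 members on day 3, 4 on day 4 and 3 on day 5, and the block changed no count of calls. At a log2 fold change over 1.5 these counts were 2, 2 and 1. On day 3 experiment 2 alone gave 3 members and limma 3. On day 2 no filter gave 2 and DESeq2 1. Between MUT and WT70 on day 3, no filter gave 2, all WT libraries 1, and WT7 and WT34 1. On day 5 these gave 5, 2 and 1, and DESeq2 3. Calls on the compared libraries alone are not given there, since only the MUT libraries of a day could estimate the spread. Between the KO and MUT effects, no filter gave 3 on day 3 and 4 on day 5, all WT libraries gave 5 and 2, WT7 and WT34 gave 5 and 2, and DESeq2 gave 1 on day 5. From day 3 to day 5 limma gave 5 in WT and 1 in WT70, and no filter gave 7 in WT70. Between experiments no filter gave 2 on day 3 and 4 on day 5, and DESeq2 4 on day 5. Without any 1 library, members that differed between KO and WT numbered 0 to 1 on day 2, 4 to 5 on day 3, 3 to 4 on day 4 and 1 to 3 on day 5, those between the KO and MUT effects on day 5 numbered 0 to 1, and MUT courses gave 5. WT70 has 1 library per day, so none could be left out. The cause of these shifts was not tested. Shares of all genes are given for some settings only, so these counts are not read as particular to the members. Over all genes, KO and WT differed at 3.96%, 7.68% and 11.7% of those tested on days 3, 4 and 5, against 1.4%, 4.22% and 5.38% in limma, and MUT and WT70 at 0.148% on day 3, against 0.552% without a filter. Members under 1 CPM rest on few counts.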
